A study of Mus musculus with 6 samples.

Results

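The genes described here are the ligands and feedback regulators of TGF-beta and activin signalling, measured in the mouse embryonic fibroblast line NIH3T3. The members were named as a list of 10 genes, and all 10 were among the 18193 genes on the arrays, with 21 of the 45101 probe sets. They fall into the 3 TGF-beta ligands Tgfb1, Tgfb2 and Tgfb3, the activin subunit Inhba with its antagonist Fst, and the intracellular regulators Smad7, Skil, Ski, Tgif1 and Pmepa1. The study measured 6 Affymetrix arrays of total RNA, and the labels call LPAR1, a receptor for lysophosphatidic acid, wild-type on 3 of them and mutant on the other 3. In each genotype 1 array was made from cells harvested at 0, 1 at 60 and 1 at 120 minutes. The labels give neither the mutation, nor how many clones or cultures were used, nor what started the clock.

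TGF-beta ligands are secreted in a latent form and act through a pair of receptor kinases, which phosphorylate SMAD2 and SMAD3. Phosphorylated SMADs join SMAD4 in the nucleus and switch on target genes, among them genes for matrix proteins in fibroblasts and genes that shut the pathway down again. Activin A, a dimer of the Inhba product, uses receptors of its own but the same SMADs, so both kinds of ligand feed into the same negative regulators.

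Values are probe-set intensities on a linear scale as deposited, and where a gene had several probe sets the brightest on average was used. Differences are on the scale of log2(intensity + 16), which compresses changes of dim probe sets. A gene was tested when its mean level reached the 40th percentile of all genes (an intensity of 39.2), which held for 9 of the 10 members and for 10916 genes. Changes were tested with limma in a model of genotype plus time, with 0.05 as the threshold for the Benjamini-Hochberg adjusted p over all genes tested. No array had a replicate of the same genotype and time. The error of the model therefore comes from how far the time changes differed between genotypes, not from replicates. The SEs and p-values rest on this spread after shrinkage toward its trend with mean level over all tested genes. With 2 residual and 7.78 prior degrees of freedom, the SE of a gene draws more on that trend than on the gene itself. Since nothing says that the arrays came from separate cultures, the spread may be technical.

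To set the responding genes beside the others at the level of sequence, the 250 bases before the transcription start were read from a RefSeq promoter table of build GRCm38.p6, which held 5 of the 10 members: Tgfb1, Tgfb2, Inhba, Ski and Tgif1. Shown are a ligand gene that rose, 1 of the 5 starts of a corepressor gene that rose, and a ligand gene for which no change passed. Capitals mark CAGAC, the core of the SMAD box, on either strand.

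Inhba, chr13:16011601-16011850, plus strand: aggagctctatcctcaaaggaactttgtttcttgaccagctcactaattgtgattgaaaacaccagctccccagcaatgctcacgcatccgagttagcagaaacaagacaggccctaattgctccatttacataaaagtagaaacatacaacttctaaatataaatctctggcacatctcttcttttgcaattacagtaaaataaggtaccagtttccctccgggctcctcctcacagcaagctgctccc

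Tgif1, chr17:70851735-70851984, minus strand: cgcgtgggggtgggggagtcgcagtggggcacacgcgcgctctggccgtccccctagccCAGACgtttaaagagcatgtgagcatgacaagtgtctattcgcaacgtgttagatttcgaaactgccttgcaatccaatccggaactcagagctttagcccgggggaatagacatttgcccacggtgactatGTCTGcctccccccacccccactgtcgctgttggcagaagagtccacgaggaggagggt

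Tgfb2, chr1:186705990-186706239, minus strand: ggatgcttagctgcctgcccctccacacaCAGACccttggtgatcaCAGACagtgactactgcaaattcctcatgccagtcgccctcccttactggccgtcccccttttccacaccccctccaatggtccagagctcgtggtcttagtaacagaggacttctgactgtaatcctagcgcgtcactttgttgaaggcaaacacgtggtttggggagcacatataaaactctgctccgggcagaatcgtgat

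CAGAC was found 2 times in this Tgif1 window and 2 times in that of Tgfb2, and in the windows of Inhba, Tgfb1 and Ski, searched through 50 bases past the start, it was not found. The Tgif1 start shown has the most matches, and of the 5 Tgif1 starts 3 had a match. In all, 4 of the 9 member windows held the word. Such a short word is common, and 49.6% of all 32851 promoters of the table held it, a share near that of the members. The palindrome GTCTAGAC (0.213% of promoters), the AP-1 motif TGANTCA (7.81%), the CRE TGACGTCA (1.79%) and the CArG box bound by SRF (1.63%) were searched on both strands as well and were in none of the member windows. None of these motifs contains CAGAC. These matches describe the letters of the windows, and the start used in these cells was not measured.

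All 9 fibroblast markers checked were above the filter level, with summed intensities of 57630 to 58930 in wild-type and 56940 to 57700 in mutant cells. Of 5 epithelial markers 2 (Cdh1 and Epcam), of 4 endothelial markers 1 (Cdh5) and of 4 haematopoietic markers 0 were above it. The endothelial sum was 51.2 to 65.6 in wild-type and 95.0 to 110.6 in mutant cells, which followed Cdh5, while Pecam1 stayed at 5.66 or less on every array. Whether these markers bear on the member genes was not tested. Lpar1 was at 1289 to 1335 on wild-type and at 1438 to 1514 on mutant arrays, which does not identify the mutation. For Actb, control probes near the 5′ end read 0.579 (wild-type) and 0.505 (mutant) of those near the 3′ end at 0 minutes. On the 4 later arrays this share was between 0.650 and 0.699. It moved with time, as did the changes described next, and its part in them was not tested.

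**Figure D1:**
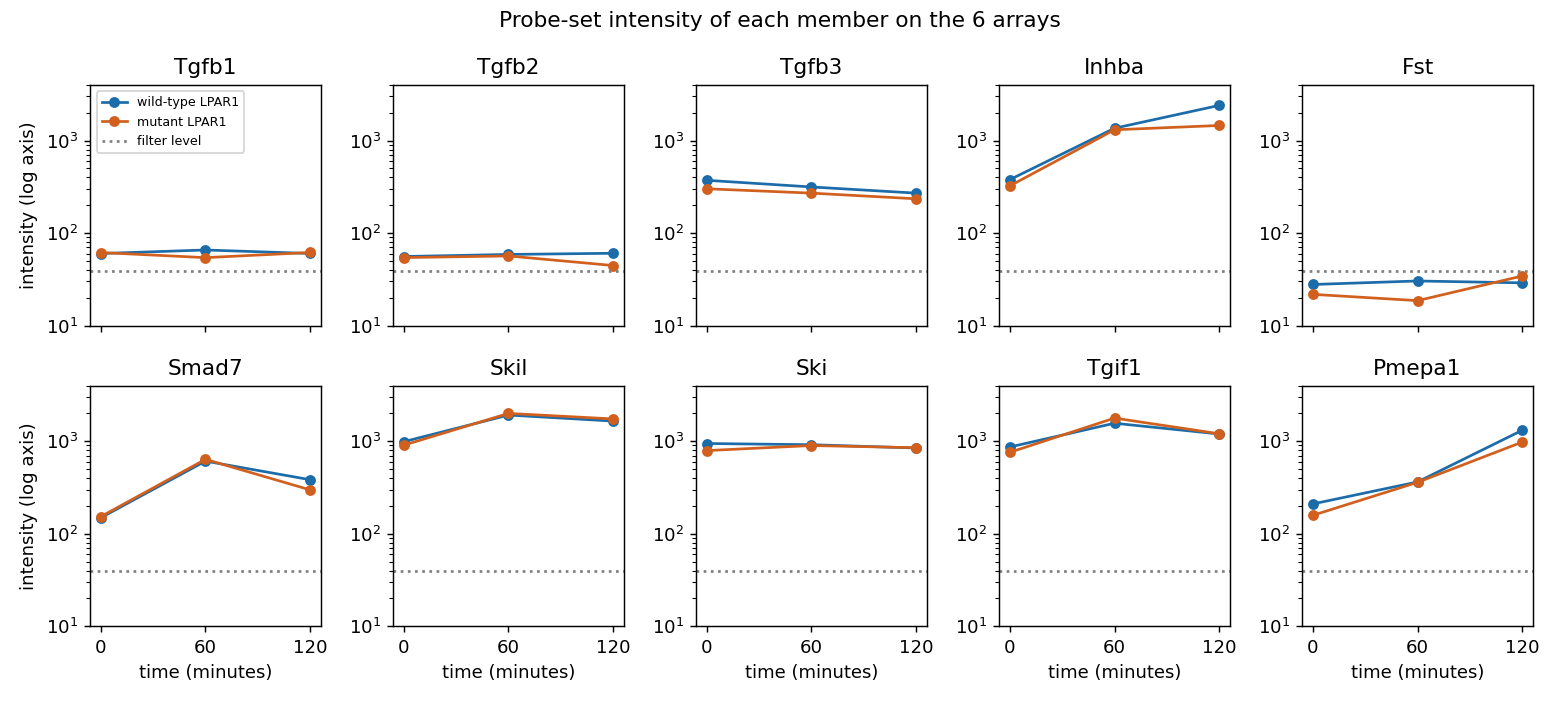
Intensity of each member (log axis) against time in minutes, 1 point per array, for wild-type (blue) and mutant (orange) LPAR1; the dotted line is the filter level of 39.2. Inhba and Pmepa1 were highest at 120 minutes and Smad7, Skil and Tgif1 at 60 minutes in both genotypes, while Fst lay below the filter level on all 6 arrays.

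Over the first hour the activin subunit and 4 of the feedback genes rose in both genotypes, and by the probe sets used no TGF-beta ligand gene passed. At 60 minutes against 0, 5 of the 9 tested members were higher and 0 were lower, against 7.34% of all tested genes higher and 10.7% lower. The median log2 difference was 0.93 over the members and -0.071 over all genes. At 120 against 0 minutes 5 members were higher and 1 was lower, against 16.2% and 30.8% of all genes. From 60 to 120 minutes 2 members were higher and 3 lower, against 10.2% and 15% of all genes. The first 2 of these comparisons share the 0 minute arrays, and the third shares arrays with both, so they are not independent. The members were chosen with earlier results of these data known, so setting their counts beside all genes is a description only.

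Smad7 encodes an inhibitory SMAD, which occupies the type I receptor and brings in ubiquitin ligases that remove it. Its intensity was 149, 610 and 384 at 0, 60 and 120 minutes in wild-type cells, and 153, 637 and 298 in mutant cells. Both 60 minute arrays were highest and both 0 minute arrays lowest, with no overlap between times. Smad7 rose 3.83-fold over the first hour (log2 1.94 ± 0.10, SE, n = 2 arrays per time; limma adjusted p = 7.01e-07). It then fell by 0.85 ± 0.10 on the log2 scale (limma adjusted p = 0.000228) and at 120 minutes was still 2.12-fold above its level at 0. The probe set used carries a suffix that marks probes shared with other transcripts, and the other Smad7 set, without that suffix, gave log2 1.77 ± 0.098 for the first hour and -0.70 ± 0.098 for the second (limma adjusted p = 0.0011 for the latter, probe sets fitted singly).

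Tgif1 encodes a homeodomain corepressor that binds SMAD2. It was at 867, 1566 and 1198 in wild-type cells and at 759, 1780 and 1205 in mutant cells. The order of times was the same as for Smad7, with smaller steps. Tgif1 rose 2.04-fold over the first hour (log2 1.03 ± 0.081; limma adjusted p = 1.49e-05), and fell by 0.47 ± 0.081 on the log2 scale over the second (limma adjusted p = 0.00203).

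Skil, which encodes the SMAD corepressor SnoN, was at 990, 1919 and 1653 in wild-type cells and at 907, 2001 and 1743 in mutant cells. The later arrays were all above those of 0 minutes. It rose 2.05-fold over the first hour (log2 1.04 ± 0.064; limma adjusted p = 2.47e-06) and was 1.78-fold above its starting level at 120 minutes. The second-hour change of -0.21 ± 0.064 passed narrowly (limma adjusted p = 0.0411) and did not pass in 8 of 15 alternative settings. Over all 15 the limma adjusted p lay between 0.0177 and 0.351. Its dimmer probe set, with a mean intensity of 53.0, gave log2 0.68 ± 0.12 and -0.033 ± 0.12 for the 2 hours.

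Ski, the closest relative of Skil and like it a corepressor of SMADs, did not pass in any of the comparisons. It was at 946, 918 and 845 in wild-type cells and at 793, 899 and 851 in mutant cells, so the times overlapped. Its first-hour difference was 0.068, with a 95% confidence interval from -0.097 to 0.23, beside an interval of 0.89 to 1.18 for Skil. The second Ski probe set, at a mean of 433, was higher at 60 minutes by log2 0.31 ± 0.082 (limma adjusted p = 0.0338 with probe sets fitted singly), so the sets of this gene disagree on that call.

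Pmepa1 encodes a membrane protein that holds SMAD2 and SMAD3 away from the receptor, and it is itself induced by TGF-beta. It was at 210, 363 and 1314 in wild-type cells and at 158, 359 and 980 in mutant cells. Unlike Smad7 and Tgif1, it rose in each hour, with every array of a later time above every array of an earlier time. The first-hour rise was 1.90-fold (log2 0.93 ± 0.097; limma adjusted p = 0.000111) and the second-hour rise 3.05-fold (log2 1.61 ± 0.097; limma adjusted p = 2.81e-06). Over both hours it was 5.80-fold higher (log2 2.54 ± 0.097; limma adjusted p = 5.34e-08). The size of these changes differed between probe sets. For the first hour the set with a mean of 193 gave log2 0.53 ± 0.11 (limma adjusted p = 0.0143 with probe sets fitted singly). The set with a mean of 61.0 gave 0.080 ± 0.12 (limma adjusted p = 0.719), with -0.10 in mutant cells, and the mean of all sets gave 0.51. Over both hours these 2 sets gave 2.04 ± 0.11 and 0.38 ± 0.12, and the mean of all sets gave 1.65.

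Inhba encodes the subunit of activin A, and by the probe sets used it was the one ligand gene of the 4 that rose. It was at 378, 1361 and 2404 in wild-type cells and at 324, 1309 and 1458 in mutant cells. Both later times lay above both arrays of 0 minutes, and the mutant array of 120 minutes was close to the 60 minute arrays. Inhba was 3.69-fold higher at 60 than at 0 minutes (log2 1.88 ± 0.12; limma adjusted p = 3.87e-06), and 5.16-fold higher at 120 (log2 2.37 ± 0.12; limma adjusted p = 4.08e-07). The second-hour change of 0.48 ± 0.12 (limma adjusted p = 0.0173) was 0.81 for wild-type and 0.15 for mutant arrays, and without the wild-type array of 120 minutes it was 0.19 (limma adjusted p = 0.140), in a range of adjusted p up to 0.261 over 15 settings. The other Inhba probe set was below the filter level on every array, with a mean of 16.2 and a range of 13.6 to 18.5. With the mean of both sets in place of the brighter, the first-hour value was 0.90.

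The TGF-beta ligand genes, whose products are the ligands of the pathway, differed from Inhba. Tgfb3 was at 372, 315 and 271 in wild-type cells and at 302, 271 and 235 in mutant cells, a decline in each genotype. At 120 minutes it was lower than at 0 by log2 -0.39 ± 0.074 (limma adjusted p = 0.00177), while the single-hour steps of -0.19 and -0.20 did not pass (limma adjusted p = 0.108 and 0.0764). Without the genotype term the adjusted p of the 2 hour difference was 0.0855, the only one of 15 settings in which it did not pass.

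Tgfb1 and Tgfb2 were dim, which limits what their values can show. The Tgfb1 set used was at 60.2, 65.7 and 60.2 in wild-type cells and at 61.7, 54.3 and 61.7 in mutant cells, with a 120 minute difference of 0.0014 (95% confidence interval -0.26 to 0.27). The other Tgfb1 set, annotated to the RefSeq transcript and with a mean of 42.0, was at 41.7, 41.0 and 64.5 in wild-type and at 30.1, 24.6 and 49.9 in mutant cells. At that set 120 minutes was higher than 0 by log2 0.50 ± 0.12 (limma adjusted p = 0.0080 with probe sets fitted singly). The Tgfb1 sets thus disagree, and 2 arrays of the second one lay below the filter level. Tgfb2 had 2 sets above that level and 2 below it. The brightest was at 55.8, 58.8 and 60.6 in wild-type cells and at 54.4, 56.6 and 44.6 in mutant cells, and its 120 minute difference was -0.062 (95% confidence interval -0.34 to 0.22).

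Fst encodes follistatin, a secreted protein that binds activin and keeps it from its receptors. Its brighter set lay between 18.6 and 34.4 and its other set between 2.49 and 4.97, all below the filter level, and the gene was not tested. Whether Fst changed beside Inhba was not detectable at these intensities.

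**Figure D2:**
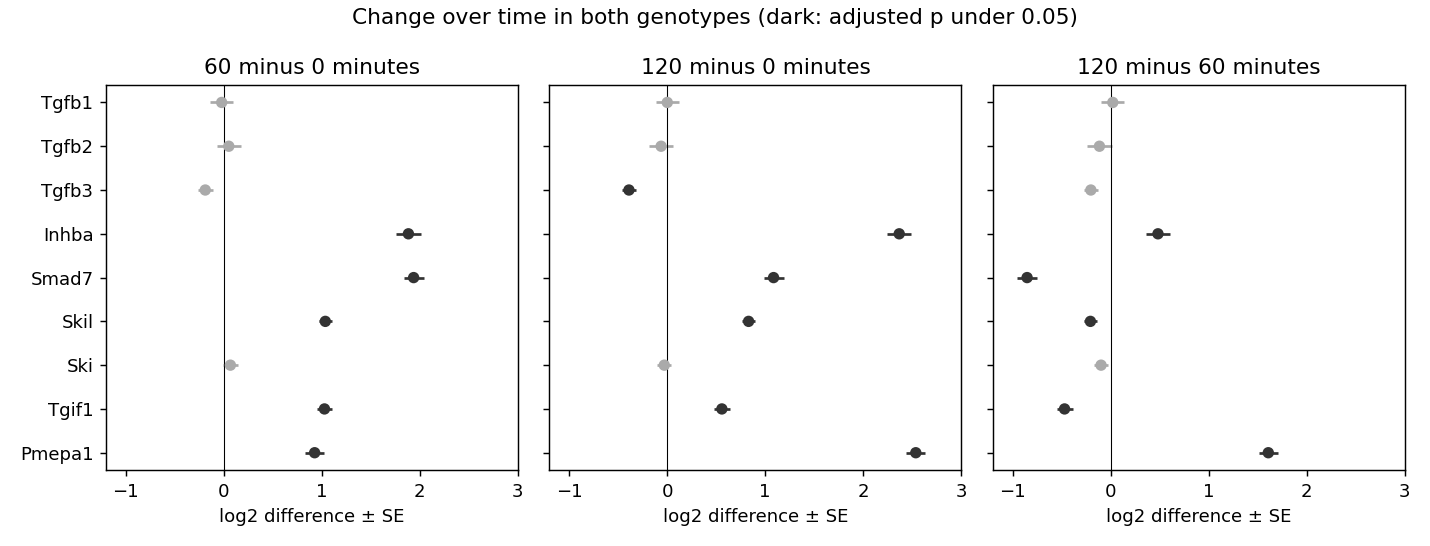
Log2 differences between times for the 9 tested members, as points with SE bars (limma, both genotypes, n = 2 arrays per time); dark points had an adjusted p under 0.05. Inhba, Smad7, Skil, Tgif1 and Pmepa1 lay to the right of 0 in both comparisons with 0 minutes, and in the second hour Smad7, Skil and Tgif1 lay to the left of it.

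**Figure D3:**
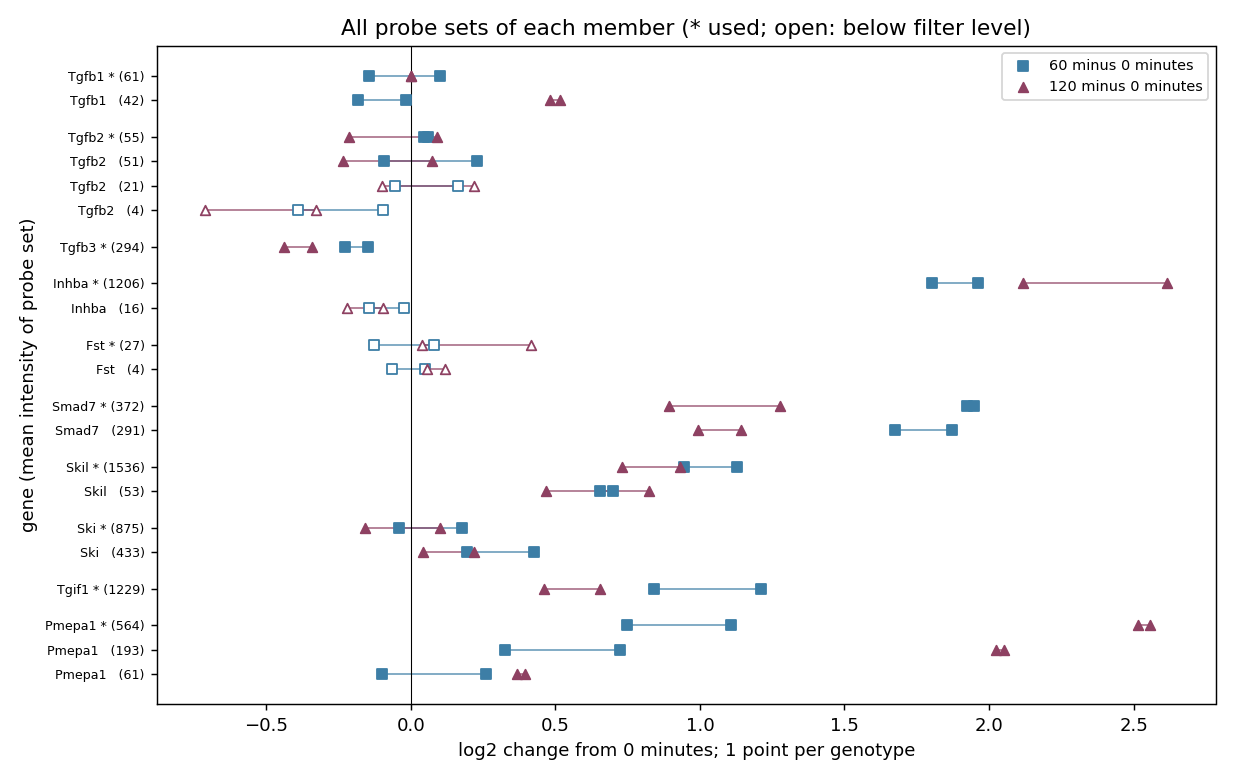
Log2 change from 0 minutes for all 21 probe sets, with 1 point per genotype joined by a line, squares for 60 and triangles for 120 minutes; stars mark the sets used, and open symbols those below the filter level. The sets of Smad7 lie close together, and those of Tgfb1, Inhba and Pmepa1 do not.

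The members with the widest range over the 6 arrays were Pmepa1, Inhba and Smad7, and the genes with the most similar profiles were sought among all tested genes. Similarity was the root mean square difference of log2 values centred on their mean over the 6 arrays. Hectd2 was nearest to Pmepa1 (0.106), at 131, 237 and 820 in wild-type and 121, 232 and 633 in mutant cells. Ccsap (0.116) and Sema7a (0.184) followed. At 0 and 60 minutes Sema7a read between 12.2 and 31.4, below the filter level, so its distance depends on the offset. Smad7 was closest to Ier5 (0.0967), an immediate early gene, which was at 344, 1636 and 938 in wild-type and 373, 1562 and 665 in mutant cells. The polo-like kinase gene Plk2 (0.130) and Stk40 (0.134) came next. For Inhba the nearest genes were further off: Palld, which encodes an actin-binding protein (0.202), Nipal1 (0.242) and the tubulin gene Tubb6 (0.252). The 6 arrays hold 3 times, so these distances mainly compare time courses.

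Between genotypes the median absolute difference of the members was near that of all genes. Tgfb3, Inhba and Pmepa1 were lower in mutant cells, 3 of the 9 tested members, and 0 were higher, against 8.92% of all genes lower and 10.4% higher. The median log2 difference was -0.090 over the members and 0.015 over all genes, and their median absolute differences were 0.090 and 0.101. When time was left out as a term, 0 members passed. The time response then entered the error, so this setting cannot weigh the genotype calls.

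Tgfb3 had the most even difference, with log2 -0.29 at 0, -0.21 at 60 and -0.19 at 120 minutes (fitted -0.23 ± 0.060, n = 3 arrays per genotype; limma adjusted p = 0.0256). It was lower in mutant cells at 3 of 3 times, and the genotypes overlapped because both declined with time. By the set used Pmepa1 was also lower at 3 of 3 times, by -0.38, -0.015 and -0.42 (fitted -0.27 ± 0.079, limma adjusted p = 0.0409). The 60 minute arrays of Pmepa1 were nearly equal, at 363 and 359. With probe sets fitted singly it did not pass (limma adjusted p = 0.0678). Nor did its sets with means of 193 (-0.19 ± 0.094, limma adjusted p = 0.228) and 61.0 (-0.12 ± 0.10, limma adjusted p = 0.486). The former was higher in mutant cells at 60 minutes (0.069) and the latter at 0 minutes (0.011). Inhba was lower by -0.21, -0.055 and -0.72 (fitted -0.33 ± 0.10; limma adjusted p = 0.0484), so that its fitted difference rested largely on the 120 minute arrays. Without the wild-type array of 120 minutes the Inhba difference was -0.13 (limma adjusted p = 0.168), and without the mutant one the same (0.162).

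None of these 3 calls held in all settings. The upper end of each range of adjusted p below came from the setting with time left out, whose error held the time response. Tgfb3 passed in 10 of 15 alternatives (adjusted p from 0.0183 to 0.713), Inhba in 7 (0.00605 to 0.992) and Pmepa1 in 6 (0.00331 to 0.995). The count of members fell from 3 to 1 without either array of 0 minutes and without either array of 120 minutes. The 2 omissions of a time remove the same pair from the estimate and are not separate checks.

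For the other members no difference passed. The fitted values and their 95% confidence intervals were 0.0043 (-0.11 to 0.12) for Skil, 0.0013 (-0.15 to 0.15) for Tgif1, -0.083 (-0.27 to 0.10) for Smad7 and -0.090 (-0.22 to 0.045) for Ski. Those of Tgfb1 and Tgfb2 were -0.053 (-0.27 to 0.16) and -0.14 (-0.37 to 0.092). At the second Tgfb1 set mutant cells were lower by log2 -0.37 ± 0.095 (limma adjusted p = 0.0368 with probe sets fitted singly), another point on which the Tgfb1 sets disagree.

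**Figure D4:**
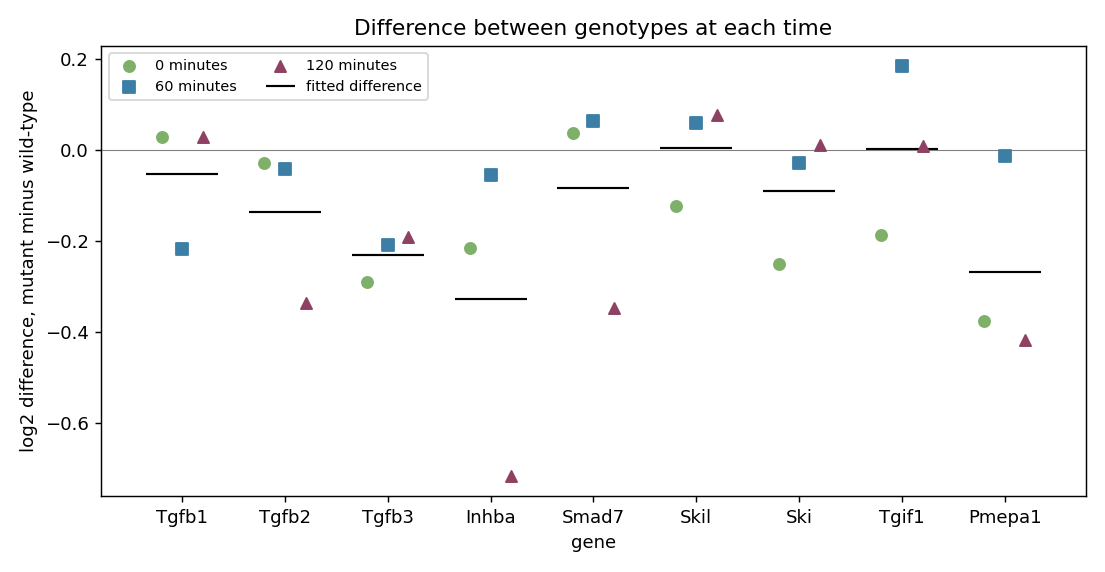
Log2 difference between mutant and wild-type cells for the 9 tested members at 0, 60 and 120 minutes, 1 pair of arrays each, with the fitted difference as a bar. All 3 points of Tgfb3 lie between -0.29 and -0.19, and the lowest point of Inhba is that of 120 minutes, at -0.72.

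Whether the time course itself differed between genotypes could not be tested with 1 array per genotype and time, and values are given without a test. In the fits above such differences entered the error. The change of Inhba from 0 to 120 minutes was 0.50 smaller in mutant cells, at log2 2.12 against 2.62, although its first-hour change was 0.16 larger. For Smad7 the change to 120 minutes was 0.89 in mutant and 1.28 in wild-type cells. Its first-hour change was 1.95 and 1.92. Tgif1 and Pmepa1 changed over the first hour by 1.21 and 1.11 in mutant and by 0.84 and 0.75 in wild-type cells. The median absolute difference between genotypes in the first-hour change was 0.183 over the 9 members and 0.109 over all 10916 genes, and in the 2 hour change it was 0.20 and 0.114.

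The rest of the pathway was described with 7 lists covering receptors, transducers, ubiquitin ligases with inhibitors, storage proteins, binders, further ligands and target genes. These lists too were chosen with earlier results of these data known. Of 9 receptor genes for TGF-beta and activin, 1 was higher and 1 lower at 60 minutes, and 2 were higher and 3 lower at 120 minutes. Over all genes 7.34% were higher and 10.7% lower at 60 minutes and 16.2% and 30.8% at 120, so the receptor counts lay near the background. Tgfbr1, the type I receptor of TGF-beta, rose by log2 0.34 ± 0.072 and 0.45 ± 0.072, and the activin type II receptor Acvr2a fell by 0.54 ± 0.075 on the log2 scale by 120 minutes. Acvr2b, the other activin type II receptor and a dim one, fell by 0.47 ± 0.12 in the first hour. In mutant cells, where 8.92% of all genes were lower and 10.4% higher, Acvr2a (-0.43 ± 0.061) and the type II TGF-beta receptor Tgfbr2 (-0.29 ± 0.049) were lower and the co-receptor Tgfbr3 (0.21 ± 0.051) was higher. Among further ligands 2 of 7 were tested. Inha, the inhibin alpha subunit, was lower at 120 minutes (-0.62 ± 0.11), as were 30.8% of all genes. It was dim, at 79.5 (wild-type) and 73.3 (mutant) at 0 minutes and at 43.7 and 44.2 at 120 minutes. The size of its change therefore depends on the offset.

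Of 7 SMAD transducers and partners, 0 were higher and 4 lower at 120 against 0 minutes, with a list median of -0.173 against -0.091 over all genes, of which 16.2% were higher and 30.8% lower. Smad4, the shared partner SMAD, was lower by -0.28 ± 0.053 and the SMAD4-directed ubiquitin ligase Trim33 by -0.34 ± 0.066. Smad3 fell by 0.24 ± 0.064 in the first hour and rose by 0.23 ± 0.064 in the second. Of 10 genes listed as SMAD ubiquitin ligases and other inhibitors, 4 were higher and 1 lower in the same comparison, with a median of 0.0985. These included the ubiquitin ligases Nedd4l (0.67 ± 0.075) and Smurf1 (0.44 ± 0.072), which act with Smad7, and Bambi (0.45 ± 0.12), a decoy receptor. Tob1 and the ubiquitin ligase Peli1 rose in the first hour (0.23 ± 0.067 and 0.46 ± 0.092) and fell by 0.49 ± 0.067 and 0.47 ± 0.092 in the second.

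Of 14 genes for latent TGF-beta storage and activation, 7 were higher and 1 lower at 120 minutes, with a median of 0.217 against -0.091 over all genes and the same shares of genes called. Ltbp1, which tethers latent TGF-beta to the matrix, rose in the second hour (0.82 ± 0.094), with 231, 234 and 480 in wild-type and 210, 220 and 354 in mutant cells. Itgb8, a subunit of an integrin that frees TGF-beta from its latent form, fell by 0.74 ± 0.086 in that hour. Thbs1, an activator of latent TGF-beta, rose by 4.67 ± 0.061 in the first hour. The protease gene Plau rose as well, by an amount that depends on the offset, since both of its 0 minute arrays lay below the filter level (6.46 for wild-type). In mutant cells, where 8.92% of all genes were lower and 10.4% higher, 5 of the 14 were lower and 1 higher. The list median was -0.0754 against 0.015 over all genes. Among the 5 that were lower were Ltbp2 (-0.67 ± 0.078), Thbs1 (-0.59 ± 0.050) and the integrin Itgb1 (-0.42 ± 0.047).

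Of 7 extracellular binders 5 were lower and 0 higher in mutant cells, with a median of -0.333 against 0.015 over all genes, of which 8.92% were lower and 10.4% higher. Fstl1, a follistatin-like glycoprotein, was at 3163 to 3282 in wild-type and at 2344 to 2501 in mutant cells (log2 -0.41 ± 0.040; limma adjusted p = 0.000133), without overlap. The serine protease gene Htra1 was lower too (-0.38 ± 0.066). Its relative Htra3 also passed, with 73.3, 72.6 and 79.0 in wild-type and 39.7, 28.6 and 20.2 in mutant cells. With 2 of its mutant arrays below the filter level, the size of the Htra3 difference depends on the offset. Vasn, which encodes a TGF-beta binding membrane protein, rose by 0.60 ± 0.054 in the first hour and was 0.79 ± 0.054 above its start at 120 minutes.

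Of 26 tested TGF-beta target genes 15 were higher and 3 lower at 60 minutes and 13 higher and 3 lower at 120 minutes. Over all genes 7.34% and 10.7% were higher and lower at 60 minutes, and 16.2% and 30.8% at 120. The list medians were 0.408 and 0.259, against -0.071 and -0.091 over all genes. Among the genes that rose in the first hour was Ccn2 (3.54 ± 0.055), which many growth stimuli induce. Hbegf and Tagln rose as well, but at 0 minutes their mutant arrays read 35.6 and 2.21, below the filter level, so the size of their change depends on the offset. Junb changed by 2.27 ± 0.068 in the first hour and by -2.41 ± 0.068 in the second. Its difference between 120 and 0 minutes, -0.14 ± 0.068, did not pass (limma adjusted p = 0.122). Id3 was lower after each hour, with changes of -0.44 ± 0.12 and -2.06 ± 0.12. Angptl4 changed by -0.85 ± 0.092 in the first hour and by 1.68 ± 0.092 in the second. At 120 minutes it was 0.83 ± 0.092 above its start. In mutant cells 14 of the 26 were lower and 2 higher, with a median of -0.201, against 8.92% and 10.4% of all genes and a median of 0.015. Tnc, a matrix protein gene, was lower (-0.79 ± 0.086), at 111, 149 and 282 in wild-type and 58.2, 92.1 and 137 in mutant cells. Tagln and Il11 were lower too, with sizes that depend on the offset: the 0 minute arrays of Tagln read 58.2 (wild-type) and 2.21 (mutant), and those of Il11 read 25.1 and 21.4. These genes respond to other pathways as well, and their counts describe the list only.

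**Figure D5:**
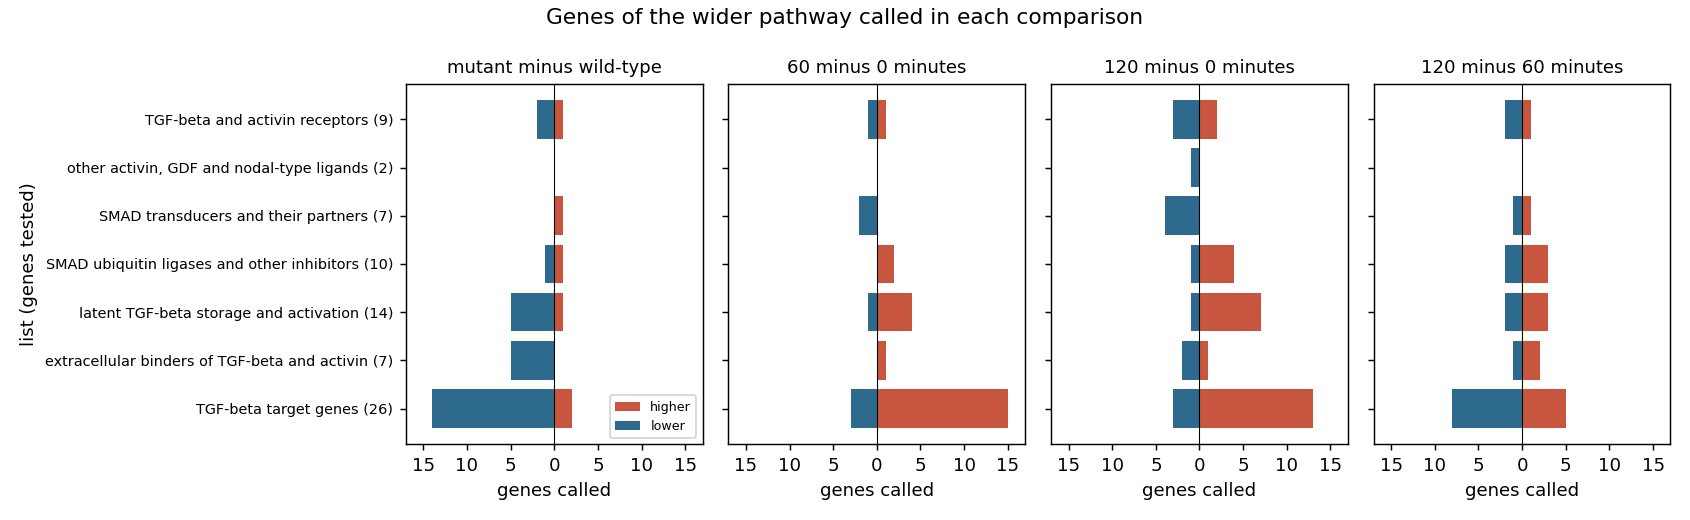
Number of genes called higher (red, to the right) and lower (blue, to the left) in each of 7 lists and 4 comparisons (limma, adjusted p under 0.05), with the number tested in brackets. Target genes had 15 higher and 3 lower calls at 60 minutes and 2 higher and 14 lower calls in mutant cells.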

How the data were processed

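RNA of 6 samples was measured on Affymetrix arrays. The deposited intensities, 1 per probe set and array on a linear scale, were made by the authors. The submitters' processing notes name PLIER, a summary method for probe sets, and Affymetrix Power Tools 1.14.3.1, without the role of each. The background correction and the scaling between arrays are not given in the sources used here. Median intensities of the arrays lay between 34.1 and 37.3, and the number of arrays limits the precision.

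Of 45101 probe sets 34945 were paired with 1 gene and 932 with several, and 34741 of the former were found by Entrez ID among the RefSeq genes of GRCm38.p6, used for names only. The set with the highest mean stood for a gene, which gave 18193 genes, of which 10916 passed the filter. No scaling was added. Values were taken to log2(intensity + 16) and fitted with limma 3.58.1 in R 4.3.3, with genotype and time as additive terms and shrinkage with a trend on mean level. The residual degrees of freedom were 2, and the prior ones 7.78. Tests were two-sided. Time pairs the arrays of the genotypes by their labels. Deviations from the genotype means correlated across genes at 0.911, 0.756 and 0.871 for the same time, which also holds the shared time response. Correlations between different times were negative, but centring on the genotype means favours this, so they add no evidence of pairing. Genes are not independent in these correlations.

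The members, the 7 lists, the motifs and the rule for naming were chosen with earlier results of these data known. The rule named all members, of each list up to 3 called genes with the largest change per comparison, and the 3 genes most like each of the 3 members of widest range; not all genes it allows are named. Alternatives were other offsets (1 and 64), no filter or a 60th percentile filter, quantile normalization, the mean of all sets of a gene, probe sets fitted singly, no trend, each term left out, and each array left out. The procedure was tested on simulated data.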

Additional observations from a re-analysis of the deposited data

Results flagged for a closer look

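Over the 9 tested members the time change went in opposite directions in the genotypes in 6 cases, all of them for Tgfb1, Tgfb2 or Ski, and with 1 array per genotype and time none of these differences was tested. From 0 to 60 minutes the change of Tgfb1 in mutant minus wild-type cells was -0.24 on the log2 scale (-0.14 against 0.10), and that of Ski was 0.22 (0.18 against -0.042). From 0 to 120 minutes the difference was -0.31 for Tgfb2 (-0.22 against 0.092) and 0.26 for Ski (0.10 against -0.16). From 60 to 120 minutes it was 0.24 for Tgfb1 (0.15 against -0.10) and -0.29 for Tgfb2 (-0.26 against 0.033). For comparison, the median absolute difference over all 10916 genes was 0.109 for the first hour and 0.114 for 2 hours.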

How the results depend on the processing

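The time responses of the 5 rising members were the stable part: Inhba, Smad7, Skil, Tgif1 and Pmepa1 passed in each of 15 alternatives against 0 minutes at both times, and so did the second-hour changes of Smad7, Tgif1 and Pmepa1. The number of members that passed between genotypes went from 3 to 1 without the filter, with the mean of all probe sets and without the shrinkage trend. With time left out it was 0, but the time response then entered the error. With 1 array left out the number lay between 1 and 2. That of 120 against 60 minutes went from 5 to 3 without the trend or the genotype term, and with 1 array left out lay between 3 and 5, the lowest without the wild-type array of 60 or of 120 minutes. Fitted singly, 9 and 11 of 16 member probe sets passed at 60 and 120 minutes, as did 2988 and 8021 of 20967 sets in all. With 1 array left out the counts against 0 minutes stayed at 5 and 6.

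Over all genes the count between genotypes went from 2112 to 1397 without the trend. It went to 89 without time as a term, where the time response entered the error. With 1 array left out the count lay between 1373 and 2163. Without the genotype term the counts at 60, at 120 and from 60 to 120 minutes went from 1969, 5130 and 2746 to 585, 2772 and 1007. With 1 array left out they ranged from 1156 to 2516, from 3691 to 5317 and from 1956 to 2718.

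The sign turned only for values that had not passed. Quantile normalization gave -0.0019 for Skil and -0.0014 for Tgif1 between genotypes and 0.056 for Tgfb1 at 60 minutes, and the mean of all sets gave 0.051 for Ski at 120 minutes. Leaving out 1 array at a time, the genotype difference ranged from -0.094 to 0.028 for Tgfb1, from -0.16 to 0.050 for Smad7, from -0.032 to 0.068 for Skil and from -0.089 to 0.096 for Tgif1. The 60 minute difference ranged from -0.14 to 0.10 for Tgfb1, from -0.028 to 0.13 for Tgfb2 and from -0.052 to 0.19 for Ski. At 120 minutes the ranges were -0.060 to 0.063, -0.21 to 0.088 and -0.15 to 0.091 for the same genes, and from 60 to 120 minutes -0.10 to 0.14 for Tgfb1 and -0.26 to 0.037 for Tgfb2. Tgfb1 passed from 60 to 120 minutes with the mean of its sets (0.31). Fits with 1 array left out have 1 residual degree of freedom before shrinkage. Where no construction of an alternative shows the cause of a lost call, the cause was not tested. Dim probe sets limit Tgfb1, Tgfb2 and Fst.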
